A study of Saccharomyces cerevisiae with 4 samples.

Results

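The PUF family of budding yeast (*Saccharomyces cerevisiae*) comprises 7 genes here, chosen by their systematic identifiers: *PUF3* (YLL013C), *JSN1* (YJR091C, also called *PUF1*), *PUF2* (YPR042C), *PUF4* (YGL014W), *MPT5* (YGL178W, also called *PUF5*), *PUF6* (YDR496C) and the Puf-like gene *NOP9* (YJL010C). All 7 were found among the 6673 genes of the deposited files. RNA was sequenced from 2 libraries of a WT strain and 2 libraries of a strain without *PUF3* (PUF3del), and the question asked of the family was whether any member rose when *PUF3* was absent. The labels place both strains in BY4742 and list the shared alleles his3Δ1, leu2Δ0, met15Δ0 and ura3Δ0 with mating type a, while the study's methods name BY4741. Cells went from overnight YPD culture into YPEG, a rich medium whose carbon sources ethanol and glycerol require respiration, at 0.01 OD and were collected at 1.0 OD without any other treatment. How the deletion was made, and how many clones it stands for, are not given in the sources used here.

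Of the 6 remaining members, 4 were higher in PUF3del than in WT, and 2 were lower, where 18.9% of the 5860 genes tested were higher and 54.2% lower (adjusted p under 0.05, limma). The mean level of *PUF2* was 2.43 times that of WT, *JSN1* 1.95 times, *PUF4* 1.87 times and *MPT5* 1.38 times. *PUF6* and *NOP9*, whose products work in the nucleolus, stood at 62.6% and 65.1% of their WT levels, in a table whose median log2 fold change was -0.39.

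PUF proteins are built of repeated helical units, stacked in a curved array whose inner face reads single-stranded RNA roughly base by base. Puf3p, Puf4p and Mpt5p bind elements that begin with UGUA in the 3′ ends of mRNAs. They recruit the Ccr4-Not deadenylase, which shortens the poly(A) tail and so lowers stability or translation. Puf3p is known for binding mRNAs of nuclear genes for mitochondrial proteins. Puf4p and Mpt5p prefer longer spacings of the same element, and Jsn1p and Puf2p are paralogs that carry an additional RNA recognition motif and associate with mRNAs of membrane proteins. Puf6p represses *ASH1* mRNA on its way to the bud and acts in large ribosomal subunit assembly, and Nop9p is needed to make the small subunit.

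The sequences after the stop codons of the family's own genes were searched for the element types of Puf3p, Puf4p and Mpt5p. Elements of Jsn1p, Puf2p, Puf6p and Nop9p were not searched, so a member without a match is not thereby free of family sites. The letters searched were TGTANATA (Puf3 type), TGTANANTA (Puf4 type) and TGTANNANTA (Puf5 type), on the coding strand only, within 200 bases after the stop codon in R64, and no start position can match more than 1 type. Of the 6002 nuclear protein-coding genes searched, 14.1% held the Puf3 type, 7.36% the Puf4 type, 6.55% the Puf5 type and 26.1% any of them. No member held the Puf3 type, 3 of 7 held the Puf4 type, 2 held the Puf5 type and 4 held any. The matches are printed 5′ to 3′ as DNA, with the element in capitals and the flanking bases in lower case.
*PUF4*, Puf4 type, chrVII:468856-468883, plus strand: atatctttTGTACAATActaaaatacat
*PUF6*, Puf4 type, chrIV:1441372-1441399, minus strand: taagcatcTGTACAATAataataaaaag
*NOP9*, Puf4 type, chrX:417515-417542, minus strand: tgtactgaTGTAAATTAtagaattatgc
*NOP9*, Puf5 type, chrX:417397-417424, minus strand: tacgatatTGTATGAATAagttggcgat
*MPT5*, Puf5 type, chrVII:170598-170625, plus strand: cttcttacTGTACAAATAttttacgcag

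The elements of *PUF4* and *PUF6* had the same 9 letters, 56 and 41 bases after their stop codons, and that of *MPT5* lay 34 bases after its stop codon. *PUF4* thus held the element type named for its own protein, and so did *MPT5*. *NOP9* held its Puf4-type element 27 bases and its Puf5-type element 145 bases after the stop codon. *JSN1*, *PUF2* and *PUF3* had none of these letters in the window. A match describes letters only, and binding was not measured.

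The authors deposited RPKM, the reads on a gene per kilobase of its length and per 1000000 reads on all listed genes, so levels of different genes can be set side by side. Multiplied back by gene length, all values (100%) came out as whole reads within 0.05 of a read (for high counts within the rounding of the file), with 6703910 to 8228693 reads on genes per library. Outside the deleted gene, members had from 231 reads (*NOP9* in PUF3del replicate 1) to 3455 reads (*JSN1* in PUF3del replicate 2), which gives a counting error of 6.58% to 1.70%. Such errors cover counting only, since reads are not independent molecules. The labels number the replicates without saying that they came from separate cultures, so the p-values measure the spread between these libraries. Genes expressed in alpha cells summed to 5429 to 7043 RPKM in WT and 1923 to 2116 in PUF3del, against 35.7 to 40.0 and 18.2 to 25.4 for 5 genes of a cells. As deposited, 4 of 4 alpha-cell genes and 2 of 5 a-cell genes were lower in PUF3del, beside 54.2% of all genes tested. By these sums the alpha-cell genes stood far above the a-cell genes in every library, against the mating type written in the labels. Of the listed marker alleles, met15Δ0 also stood against the values: *MET17*, the gene also called *MET15*, had 512.0 and 533.8 RPKM in WT and 125.1 and 110.3 in PUF3del, although it overlaps another listed gene, YLR302C. *LYS2*, which those alleles leave intact, had 1 read in both WT libraries and 1 and 4 reads in PUF3del. Both values go against the allele list in the labels, in both strains. The strain name BY4742, which the labels also give, is a separate item and was not tested. *LEU2* had 1 to 4 reads and *URA3* none in any library. *HIS3*, which overlaps the listed gene YOR203W, had 311.6 and 292.1 RPKM in WT and 89.4 and 81.2 in PUF3del. Whether these reads come from the listed allele his3Δ1 was not tested.

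In R64, *PUF3* occupies 1 coding exon on the minus strand of chromosome XII (122075 to 124714). Its level was 29.2 and 35.0 RPKM in WT and 0.113 and 0.280 RPKM in PUF3del. The libraries labelled PUF3del therefore had almost no *PUF3* RNA, 2 and 6 reads against 569 and 761 in WT. Over both libraries of a strain this left 0.633% of the WT level (exact 95% counting interval 0.273% to 1.25%). Of the 5860 genes tested with limma, only 2 had a lower log2 fold change than *PUF3*, which had -4.79 (standard error 0.21) at an adjusted p of 8.7e-06. The size depends on the pseudocount, with -6.82 at 0.1 and -2.83 at 5 in place of 1. All adjusted p-values here are limma's, adjusted by Benjamini and Hochberg's method over all genes tested.

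**Figure D1:**
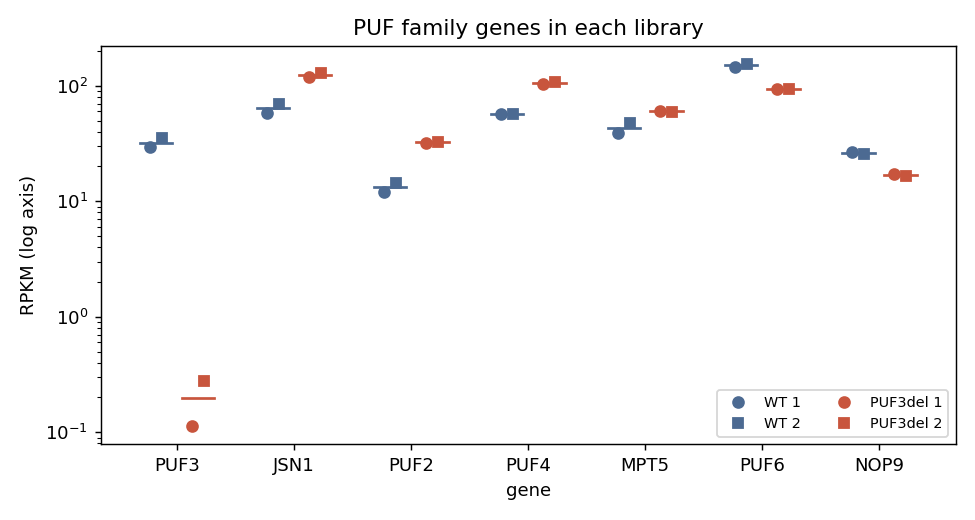
RPKM of each PUF family gene (log axis) in the 2 WT libraries (blue) and the 2 PUF3del libraries (red), with circles for replicate 1, squares for replicate 2 and a line at the mean of each strain. *JSN1*, *PUF2*, *PUF4* and *MPT5* sit higher in both PUF3del libraries than in both WT libraries, *PUF6* and *NOP9* sit lower, and *PUF3* falls to 0.113 and 0.280 RPKM.

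*JSN1* and *PUF2*, the paralog pair, both rose. *JSN1* (chromosome X, 595061 to 598336, minus strand, 1 coding exon) had 58.6 and 69.7 RPKM in WT and 120.2 and 129.9 in PUF3del. Both PUF3del libraries were far above both WT libraries, and limma gave a log2 fold change, on the log2(RPKM + 1) scale, of 0.96 ± 0.11 (standard error) with an adjusted p of 0.00018. *PUF2* (chromosome XVI, 650435 to 653662, minus strand, 1 coding exon), the least abundant member in WT, had 12.0 and 14.5 RPKM there and 32.1 and 32.5 in PUF3del. Its log2 fold change of 1.23 ± 0.13 (standard error, limma adjusted p = 0.00014) exceeded that of 96.6% of the genes tested, and that of *JSN1* exceeded 94.7%. The paralogs did not keep a fixed ratio: *PUF2* was at 0.205 and 0.208 of the level of *JSN1* in WT and at 0.267 and 0.250 in PUF3del. This ratio, which a single factor per library cannot move, was higher in both PUF3del libraries, with an exact two-sided permutation p of 0.33, the smallest that 2 libraries against 2 allow.

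*PUF4* (chromosome VII, 466141 to 468807, plus strand, 1 coding exon) had 56.9 and 56.8 RPKM in WT and 103.7 and 108.8 in PUF3del. The WT libraries were nearly equal and the strains were well apart, by 0.89 ± 0.08 on the log2 scale (standard error, limma adjusted p = 8.1e-05). A listed gene of 163 bases on the other strand, YGL014C-A, lies within *PUF4* in the files and was listed at 0 in every library. *MPT5* (chromosome VII, 167352 to 170571, plus strand), whose product is known for repressing *HO* mRNA, has 2 coding exons with an intron in R64, and the files give it 2579 bases against 3220 for the R64 gene with the intron. Its level was 39.2 and 47.8 RPKM in WT and 61.0 and 59.3 in PUF3del. The increase was the smallest of the 4, at 0.46 ± 0.12 on the log2 scale (standard error, limma adjusted p = 0.0085). Leaving out PUF3del replicate 1 ended this call (log2 fold change 0.45, limma adjusted p = 0.061, threshold 0.05), and the direction stayed.

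Part of the spread in these genes lay between the WT libraries. *JSN1*, *PUF2*, *MPT5* and *PUF3* differed by 0.25, 0.25, 0.28 and 0.25 on the log2 scale between the WT replicates, replicate 2 being higher each time, against a median absolute difference of 0.13 over the genes tested. Between the PUF3del replicates the same difference was 0.11 for *JSN1*, 0.02 for *PUF2* and 0.04 for *MPT5*, with a median of 0.09 over the genes tested.

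*PUF6* and *NOP9* moved the other way. *PUF6* (chromosome IV, 1441433 to 1443403, minus strand, 1 coding exon) was the most abundant member in WT with 146.5 and 154.2 RPKM, and had 94.5 and 93.7 in PUF3del. The strains did not overlap, and the log2 fold change was -0.67 ± 0.08 (standard error, limma adjusted p = 0.00024). *NOP9* (chromosome X, 417562 to 419562, minus strand, 1 coding exon) had 26.5 and 25.4 RPKM in WT and 17.2 and 16.6 in PUF3del, a log2 fold change of -0.59 ± 0.11 (standard error, limma adjusted p = 0.0023). Both falls have to be read against the whole table, in which the median log2 fold change was -0.39. *PUF6* lay 0.28 and *NOP9* 0.20 below that median, and 34.7% and 38.6% of the genes tested had a smaller log2 fold change. In whole cultures, fewer cells of a kind and less RNA per cell cannot be told apart.

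As deposited, 4 of the 6 members other than *PUF3* were higher in PUF3del at an adjusted p under 0.05, where 18.9% of the 5860 genes tested were higher, and 2 were lower, where 54.2% of them were lower. In the same way the PUF3del libraries were both above the WT libraries for 4 members, against 24.9% of all genes, and both below for 2 members, against 62.6%. The count of lower members is thus close to or under the background, and the count of higher members is above it. Median-of-ratios scaling, which sets the typical gene to no change and moved the median of all genes from -0.39 to -0.01, left 4 members higher, with 33.9% of all genes higher, and 1 member lower, with 33.2% of all genes lower. Under it the log2 fold changes were 1.34 (*JSN1*), 1.60 (*PUF2*), 1.27 (*PUF4*) and 0.85 (*MPT5*), *PUF6* stayed lower at -0.28 (adjusted p = 0.016 in limma), and *NOP9* at -0.22 no longer passed (adjusted p = 0.12 in limma).

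**Figure D2:**
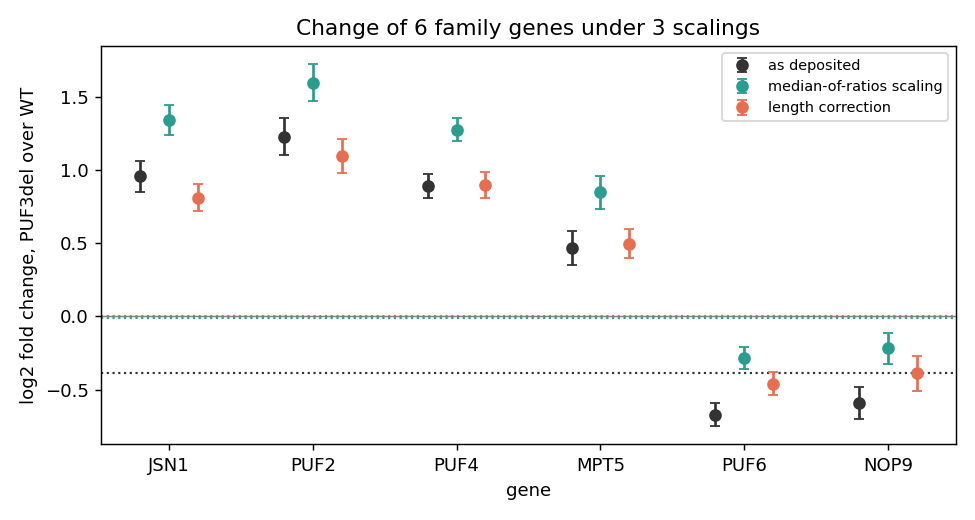
Log2 fold change of PUF3del over WT (points, with bars of 1 standard error) of the 6 members other than *PUF3* in the deposited scaling, under median-of-ratios scaling and with a correction for gene length. Dotted lines mark the median of all genes tested, -0.39 in the deposited scaling and -0.01 under median-of-ratios scaling, while the line of the length correction lies on 0. The 4 genes on the left stay above 0 in all 3, and the bars of *PUF6* and *NOP9* lie below 0 in all 3.

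The log2 fold change ran with gene length over the whole table, its median being -0.75 among the shortest of 8 length classes and 0.22 among the longest. The 4 members that rose have 2579 to 3277 bases in the files, and the 2 that fell have 1972 and 2002. Among the 773 tested genes of at least 2500 bases, 40.6% were higher and 20.4% lower in PUF3del, and among the 266 genes of 1900 to 2100 bases, 27.8% were higher and 44.4% lower. Under median-of-ratios scaling, 65.6% of the 773 longer genes were higher and 6.86% lower, so most genes as long as the 4 members were called higher with them. The members therefore sat in length classes that leaned the same way as they did. With this trend removed by a loess curve, *JSN1*, *PUF2*, *PUF4* and *MPT5* were still higher at 0.81, 1.09, 0.90 and 0.50, and *PUF6* and *NOP9* lower at -0.46 and -0.39. After this correction 32.9% of all genes were higher and 31.6% lower, and the log2 fold changes of the 4 members exceeded those of 86.3%, 92.5%, 88.5% and 75.99% of the genes tested. A difference between library preparations that depends on length cannot be told apart from the strains.

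**Figure D3:**
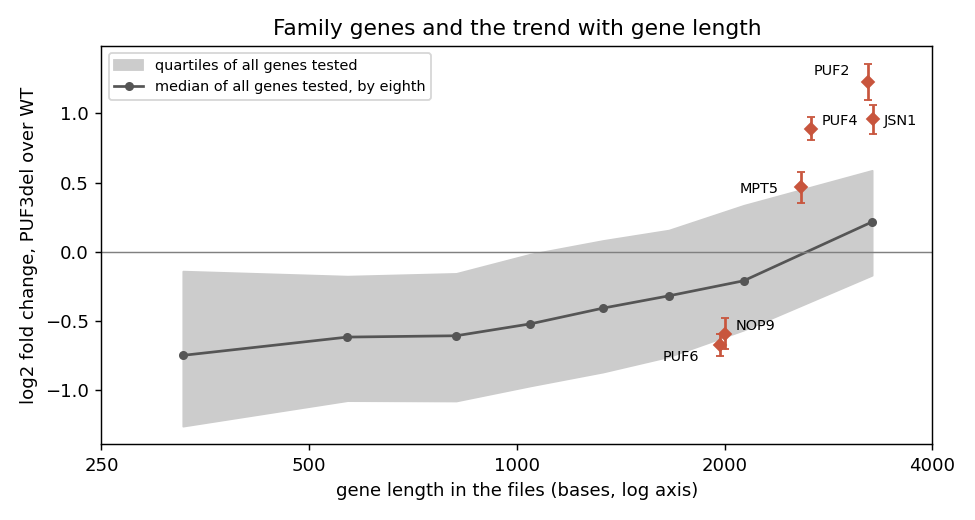
Log2 fold change of PUF3del over WT against gene length in the files (log axis). The grey line gives the median and the grey band the quartiles of all genes tested in 8 classes of length, placed at their median length, and diamonds give 6 family members with bars of 1 standard error. *JSN1*, *PUF2* and *PUF4* lie above the band, and *MPT5*, at 0.46, lies close to its upper edge.

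The order of levels within the family changed with the strain. In WT the mean RPKM ran from *PUF6* (150.3 ± 5.45, SD, n = 2) through *JSN1* (64.2 ± 7.82), *PUF4* (56.9 ± 0.0081), *MPT5* (43.5 ± 6.10), *PUF3* (32.1 ± 4.09) and *NOP9* (26.0 ± 0.753) to *PUF2* (13.3 ± 1.77). *JSN1* and *PUF4* were the closest neighbours relative to their spread, 7.30 RPKM apart with a pooled SD of 5.53. In PUF3del the order was *JSN1* (125.0 ± 6.85, SD, n = 2), *PUF4* (106.3 ± 3.60), *PUF6* (94.1 ± 0.516), *MPT5* (60.1 ± 1.17), *PUF2* (32.3 ± 0.310), *NOP9* (16.9 ± 0.425) and *PUF3* (0.196 ± 0.118). *PUF6* thus moved from the first to the third place, and *PUF2* passed *NOP9*. These are deposited levels, which carry the trend with gene length, and *PUF6* and *NOP9* are the shortest members. The order was not computed with length corrected. In neither strain did neighbours in the order overlap between libraries, and no gap was within the pooled SD.

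Shares within the family are not moved by a single scaling factor per library, whereas quantile normalization and the length correction act gene by gene and can move them. Of the RPKM summed over the 6 members other than *PUF3*, *PUF6* held 43.1% and 41.8% in WT and 22.0% and 21.3% in PUF3del. *JSN1* went from 17.3% and 18.9% to 28.04% and 29.5%, and *PUF4* from 16.7% and 15.4% to 24.2% and 24.7%. The shares of these 3 genes were well apart between the strains. *PUF2* held 3.54% and 3.94% in WT against 7.48% and 7.37% in PUF3del, and *NOP9* 7.80% and 6.90% against 4.02% and 3.77%. *MPT5* changed least, from 11.5% and 13.0% to 14.2% and 13.5%, a rise of 1.58 percentage points beside a spread of 1.02 between the WT libraries (SD, n = 2). Without WT replicate 1 this rise was 0.86 percentage points, and without WT replicate 2 it was 2.30. None of the 6 shares overlapped between the strains, and each had the smallest exact two-sided permutation p of 0.33 that the design allows. Shares within other groups of genes were not computed for comparison. Among levels of single genes, a different measure, separation was common: as deposited, 24.9% of all genes tested were above WT without overlap, and 62.6% below. The shares also add up to the whole, so they are not independent of each other.

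**Figure D4:**
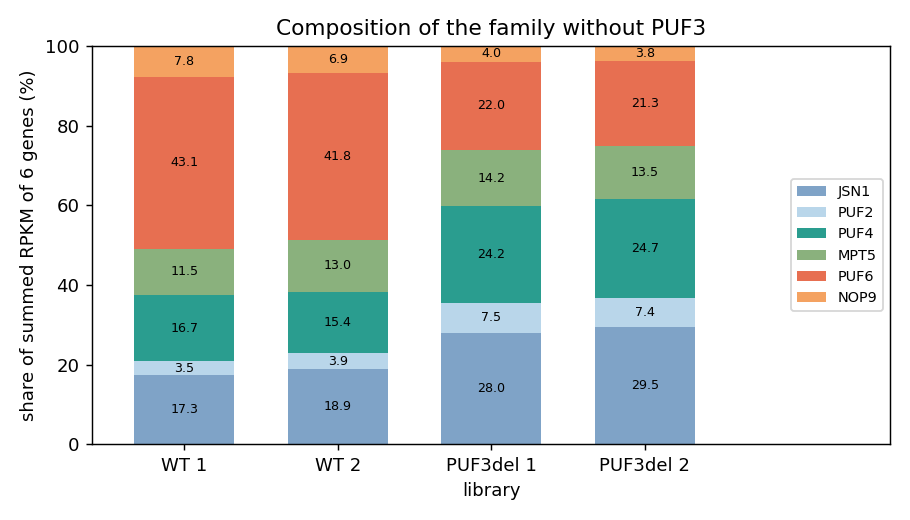
Share of the summed RPKM of 6 family genes (percent, stacked to 100) held by each gene in each library. *PUF6* shrinks from 43.1% and 41.8% in WT to 22.0% and 21.3% in PUF3del while *JSN1*, *PUF2* and *PUF4* widen.

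The summed level of the cytoplasmic members *JSN1*, *PUF2*, *PUF4* and *MPT5* was 166.7 and 188.9 RPKM in WT and 316.9 and 330.5 in PUF3del, and that of the nucleolar *PUF6* and *NOP9* was 173.0 and 179.6 against 111.7 and 110.4. The ratio of the first sum to the second was 0.964 and 1.05 in WT and 2.84 and 2.99 in PUF3del, a 2.89-fold difference within libraries (exact two-sided permutation p = 0.33, the smallest possible, n = 2). Every member of the first sum was higher on its own and every member of the second lower. The ratio therefore had to separate the strains, and it restates those changes without adding to them. This division was chosen with earlier results of these data known. The first sum holds genes of at least 2500 bases, a class with a median log2 fold change of 0.19. The second holds genes of 1900 to 2100 bases, with a median of -0.24. The ratio was not computed with length corrected, so how much of it goes with gene length was not tested. For single members the corrected log2 fold changes were 0.81 (*JSN1*), 1.09 (*PUF2*), 0.90 (*PUF4*), 0.50 (*MPT5*), -0.46 (*PUF6*) and -0.39 (*NOP9*). Adding *PUF3* to the cytoplasmic members gave 195.9 and 223.9 RPKM in WT and 317.0 and 330.8 in PUF3del, so their sum was higher even with the deleted gene counted. *PUF3* itself made up 7.92% and 8.68% of the RPKM of all 7 members in WT. Among the 15 ratios between 2 members, those of *JSN1* to *PUF4* and of *PUF6* to *NOP9* overlapped between strains, and the other 13 did not. Ratios between genes outside the family were not computed for comparison. For single genes as deposited, 24.9% of those tested were above WT without overlap and 62.6% below. *PUF4* was at 1.45 and 1.19 times the level of *MPT5* in WT and at 1.70 and 1.83 times in PUF3del.

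The genes of most like pattern were those with the smallest root mean square distance from a member in log2(RPKM + 1) over the 4 libraries. They were *PET117* and *SEG1* for *JSN1* (0.094 and 0.097), *HXT6* and *FET4* for *PUF2* (0.089 and 0.12), *RGC1* and *GPT2* for *PUF4* (0.061 and 0.069) and *RRT6* and *MGR3* for *MPT5* (0.070 and 0.072). For *PUF6* they were *GNA1* and *FMP23* (0.052 and 0.054), and for *NOP9* *SLP1* and *GPI8* (0.056 and 0.071). *PUF3* had no close match, its nearest genes *PAU11* and *EFM6* being 0.72 and 1.06 away.

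Puf3p, Puf4p and Mpt5p act through the Ccr4-Not complex, and its genes did not move as a block. Of 11 listed genes of the complex and its direct partners, 3 were higher and 5 lower in PUF3del, and 3 did not pass, beside 18.9% higher and 54.2% lower of all genes tested, with a median log2 fold change of -0.22 beside -0.39 for all genes. *CCR4*, the main deadenylase subunit (63.2 ± 2.33 RPKM in WT and 84.9 ± 3.46 in PUF3del, SD, n = 2), *CDC39*, the Not1 scaffold (20.6 ± 0.947 and 38.3 ± 0.850), and *EAP1*, an eIF4E-binding partner of Mpt5p (180.4 ± 0.748 and 225.8 ± 8.38), were higher in the deposited scaling, under median-of-ratios scaling and with length corrected. *CAF40* (171.0 ± 12.9 and 72.9 ± 5.37) and *CAF130* (26.5 ± 1.496 and 15.4 ± 1.09), further subunits of the complex, were lower in all 3. Of all genes tested, 17.2% were higher in all 3 and 27% lower in all 3. The range ran from -1.22 for *CAF40* to 0.87 for *CDC39*. *POP2*, the deadenylase subunit that Mpt5p contacts, had 151.1 ± 0.561 RPKM in WT and 139.2 ± 5.07 in PUF3del and did not pass as deposited (log2 fold change -0.12, adjusted p = 0.21 in limma). Its direction turned under median-of-ratios scaling (0.27, adjusted p = 0.016 in limma) and with length corrected (0.30, adjusted p = 0.0095 in limma), and it passed as higher in both. It was chosen for mention after its values were seen.

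Of 11 listed partners of Puf6p and Nop9p in *ASH1* mRNA localisation and ribosome assembly, 9 were lower and 1 higher in PUF3del, beside 54.2% lower and 18.9% higher of all genes tested, with a median log2 fold change of -0.71 beside -0.39. They have 280 (*RPL43A* and *RPL43B*) to 3010 bases (*FUN12*), and shorter genes leaned lower over the whole table. With length corrected, 6 were lower and 1 higher, beside 31.6% and 32.9% of all genes tested. Their median was then -0.23 beside 0.0013. The lower genes with the largest changes were *RPL43A* (4181 ± 341 RPKM in WT and 1475 ± 13.8 in PUF3del, SD, n = 2), *SHE2* (76.1 ± 4.94 and 29.8 ± 2.22) and *ENP1* (98.6 ± 11.05 and 50.2 ± 2.25). *RPL43A* encodes the ribosomal protein that Puf6p escorts and has a near-identical copy, *RPL43B*, and an overlapping listed gene, so its reads are uncertain. *SHE2* encodes the RNA-binding protein that carries *ASH1* mRNA to the bud, and *ENP1* a factor of small subunit assembly. *KHD1*, listed in R64 as *HEK2*, another repressor of *ASH1* mRNA, was the only one higher, with 134.6 ± 5.50 RPKM in WT and 189.8 ± 13.5 in PUF3del (log2 fold change 0.49). Under all 3 ways of scaling, 6 of the 11 were lower and 1 higher, against 27% and 17.2% of all genes tested.

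Of 24 other listed mRNA-binding protein genes, 23 were analysed here, and 10 were higher, 10 lower and 3 did not pass, beside 18.9% higher and 54.2% lower of all genes tested, with a median log2 fold change of 0.25 beside -0.39. The highest was *TIS11*, which destabilises mRNAs of iron-dependent proteins, with 29.7 and 25.04 RPKM in WT and 278.2 and 275.6 in PUF3del. Its log2 fold change of 3.30 (standard error 0.10) was above that of *PUF2*. *PIN4* (1.38) and *NGR1* (1.26) followed, and the lowest were *VTS1* (-1.63), *SRO9* (-1.35) and *NRD1* (-1.32). Higher in all 3 ways of scaling were 9 of these genes, and lower in all 3 were 7, against 17.2% and 27% of all genes tested. The increases of *JSN1*, *PUF2*, *PUF4* and *MPT5* thus lay within the range of other RNA-binding protein genes, and no test set the family apart from them.

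**Figure D5:**
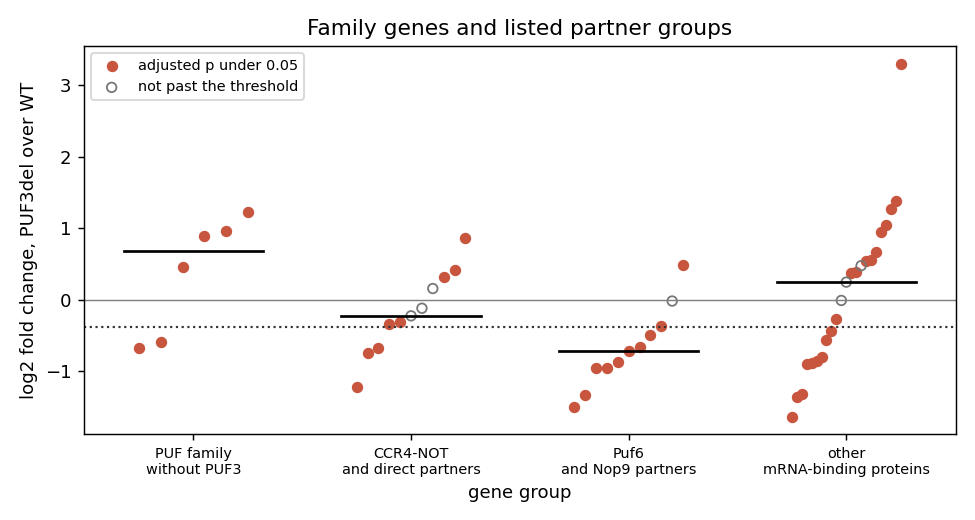
Log2 fold change of PUF3del over WT, as deposited, of each gene in the family without *PUF3* and in the 3 listed groups, sorted within a group. Filled points passed an adjusted p of 0.05, bars give the median of a group, and the dotted line the median of all genes, -0.39. The partners of Puf6p and Nop9p have the lowest median, -0.71, and *TIS11* stands at 3.30 in the group of other mRNA-binding proteins. Values are not corrected for gene length, which brings the median of these partners to -0.23.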

How the data were processed

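The authors used SOAP2 for mapping, allowing up to 2 mismatches, and deposited RPKM per gene and library. The submitters' processing notes name the build R64, but positions in the files differ from R64 for most genes, so positions come from R64 alone, joined by identifier (5984 of 6673 genes, all 7 members). The SOAP2 version, the handling of multiply mapping reads and the strand of counting are not given in the sources used here. PUF3del was set against WT in limma 3.58.1 (R 4.3.3, trended eBayes). The fit used log2(RPKM + 1) of the 5860 genes whose mean RPKM reached 1, with Benjamini-Hochberg adjustment and a threshold of 0.05. The pseudocount of 1 understates changes of low genes. Single ratios and shares had exact permutation tests in scipy 1.17.1. Alternatives were other pseudocounts and filters, median-of-ratios and quantile scaling, a replicate block, loess corrections (span 0.3) for gene length and GC content, limma's voom on recovered reads, and leaving out each library. Named were all members, the 2 genes nearest to each in pattern, overlapping genes, and per listed group the highest, the lowest and up to 3 genes called each way under all 3 scalings. The members and lists, and the division into cytoplasmic and nucleolar members, were chosen with earlier results of these data known.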

Additional observations from a re-analysis of the deposited data

How the results depend on the processing

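Under the 15 alternatives, *JSN1*, *PUF2* and *PUF4* stayed higher and *PUF6* and *PUF3* lower in PUF3del at an adjusted p under 0.05 from limma, with log2 fold changes from 0.76 to 1.34, 1.03 to 1.66, 0.85 to 1.27, -0.71 to -0.28 and -7.25 to -2.83. *MPT5* ran from 0.32 to 0.86 and fell short only without PUF3del replicate 1 (0.45, adjusted p = 0.061), with 0.32 to 0.60 when single libraries were left out. *NOP9* kept its direction and fell short under median-of-ratios scaling (-0.22), quantile normalization (-0.14) and the correction for length and GC content (-0.26), each of which left 1 lower member, *PUF6*. With the replicate number as a block, *MPT5* had 0.46 and *NOP9* -0.59, and 4 members were higher and 2 lower, as without it. Same-numbered libraries did not deviate together (correlation -0.014 over genes). This cannot show whether they were cultured or prepared together.

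The counts of all genes depend on scaling. Higher and lower genes numbered 1984 and 1945 under median-of-ratios scaling, 1869 and 2003 under quantile normalization, 1928 and 1854 with the length correction, 1994 and 1910 with the length correction and the replicate block, and 1848 and 1778 with length and GC content corrected, against 1108 and 3175 as deposited. Among the Ccr4-Not genes, 5 were higher and 3 lower under median-of-ratios scaling and 5 and 2 with the length correction, and among the partners of Puf6p and Nop9p, 2 were higher under median-of-ratios scaling. With 2 libraries per strain the exact permutation test of a single share or ratio cannot go below 0.33. *PUF3* in PUF3del rests on 2 and 6 reads.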
